A study of Mus musculus with 3 samples.

Results

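The amino acid transporter genes described here are the protein-coding genes of 8 solute carrier (SLC) families, Slc1a, Slc3a, Slc6a, Slc7a, Slc15a, Slc36a, Slc38a and Slc43a, chosen by gene symbol and by having at least 1 transcript annotated as protein coding. The rule gave 65 genes of the 55536 in the gene tables, and it left out 1 gene that the symbols would have taken in, the cystine transporter gene Slc7a11. No measured value entered the rule.

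The libraries came from primary bone-marrow-derived macrophages of C57BL/6J mice, with sex and age not collected. All belong to 1 group of 3 libraries: cells given 100 ng/ml Lipid A for 12 h, washed and left without it for 12 h, then given 100 ng/ml Lipid A for 50 min. Lipid A, the lipid moiety of bacterial lipopolysaccharide, is the ligand of Toll-like receptor 4. Total RNA-seq after ribosomal depletion was run on the chromatin fraction, which is rich in nascent and unspliced RNA, from 1 µg, 250 ng and 500 ng for replicates 1, 2 and 3. The labels name the same donor for all 3 and leave unsaid whether animals or cultures were separate, so SDs measure the spread between these libraries, which may be technical. Cells without Lipid A were not analysed here, and no value below is a response to it. In such bulk libraries, fewer cells making a transcript and less of it per cell cannot be told apart.

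Amino acid transporters bring amino acids across the plasma membrane or move them out of the lysosome. Some are symporters driven by sodium or protons, others exchange an internal amino acid for an external one, and the Slc7a light chains of the large neutral amino acid systems work only when joined to a heavy chain encoded by Slc3a2. In macrophages, arginine uptake feeds nitric oxide synthesis and lysosomal export returns amino acids from digested material, which the mTORC1 kinase complex senses at the lysosomal surface. Not every product of these families carries amino acids: some carry taurine, creatine, peptides or nucleobases.

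The libraries held 13897176, 19597343 and 19348626 expected counts. All 8 macrophage markers had a level of at least 1 TPM in each library, with summed levels of 975, 1207 and 888 TPM. None of the markers listed for neutrophils, T cells, B cells, fibroblasts, endothelium, neurons and astrocytes, or gut and kidney epithelium reached that level in all 3, and no list summed above 2.88 TPM in any library. TPM is the abundance of a gene relative to all transcripts of a library and per unit of transcript length, summed over its annotated transcripts, and it can be compared between genes. Values come from tables made by alignment unless they are said to come from the read-based tables, which were made from the reads and an index.

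A small number of genes held most of the transporter RNA. Genes with 1 TPM or more in all 3 libraries were called detected. By that call 23 of the 65 transporter genes (35.4%) were detected, beside 39.2% of the 22028 protein-coding genes and 20.2% of all genes. The share lies close to that of protein-coding genes, and nothing about the transporters is read from it. Among the 23, the median level was 19.7 TPM, beside 9.95 over all 8638 detected protein-coding genes, and 17 of them had a mean of at least 10 TPM. Over all 65 genes the median was 0.143 TPM, beside 0.367 over protein-coding genes. It was 0.085 TPM without replicate 3 and 0.970 TPM by the read-based values. Together the 65 genes summed to 1597, 1368 and 1426 TPM, a mean of 1463 ± 119 (SD, n = 3). Slc6a6 alone held 32.4% of that sum, and Slc6a6, Slc15a3 and Slc38a6 together held 58.9%.

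**Figure D1:**
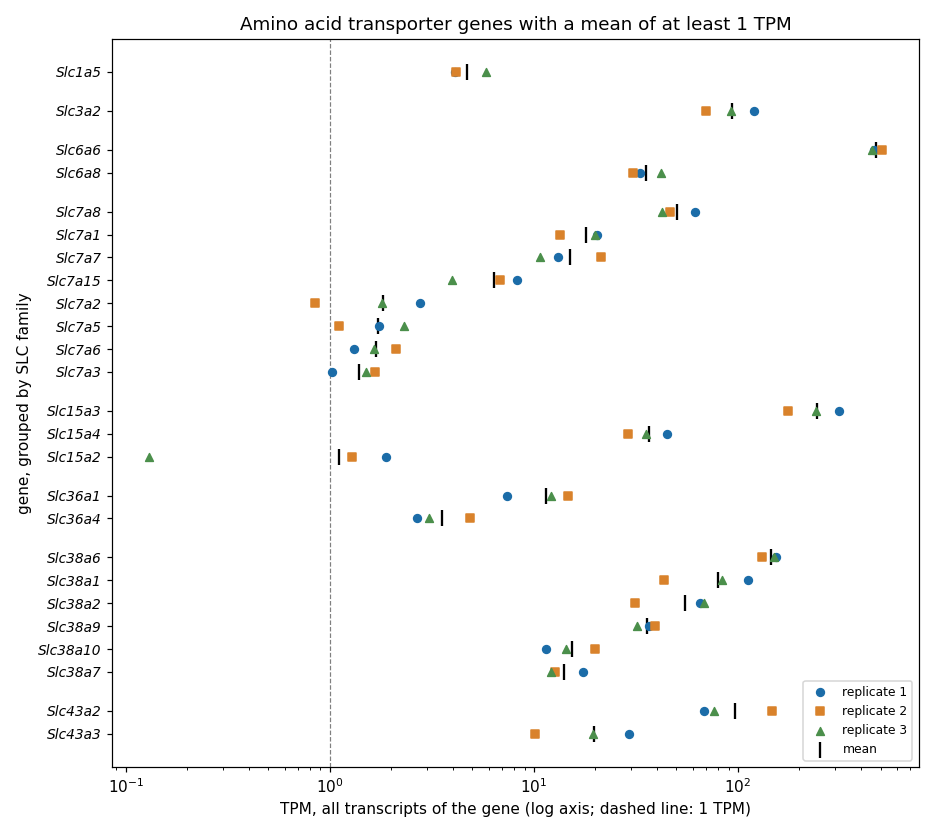
Level of each transporter gene with a mean of at least 1 TPM, on a log axis, grouped by family. Points are the 3 libraries and the black bar is their mean. Slc6a6 sits between 452 and 507 TPM, above all other genes, and Slc7a2 and Slc15a2 each have a library below 1 TPM.

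The detected genes are counted here by family, beside 39.2% detected over all protein-coding genes. The families are small, and nothing about a family is read from its count. In Slc38a, the sodium-coupled neutral amino acid family and its lysosomal relatives, 6 of 11 genes were detected, and in Slc7a, which holds the light chains and the cationic amino acid transporters, 7 of 14. In Slc6a, most genes of which serve neurotransmitters or epithelial uptake, 2 of 19 were detected, and in Slc1a, the glutamate and neutral amino acid family, 1 of 7. Each of the remaining families had at least 1 detected gene, with 1 of 2 in Slc3a, 2 of 5 in Slc15a, 2 of 4 in Slc36a and 2 of 3 in Slc43a. In summed level Slc6a was highest at 511 ± 24.8 TPM, 92.9% of it from Slc6a6. It was followed by Slc38a at 345 ± 60.9 and Slc15a at 281 ± 76.9 TPM. Slc6a was also highest by the read-based values, at 695 ± 38.2 TPM. Over coding transcripts only, Slc38a came first at 164 ± 31.9 TPM, with Slc6a at 145 ± 14.5 and Slc15a at 132 ± 47.2. The lead of Slc38a over Slc6a there was smaller than its SD.

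**Figure D2:**
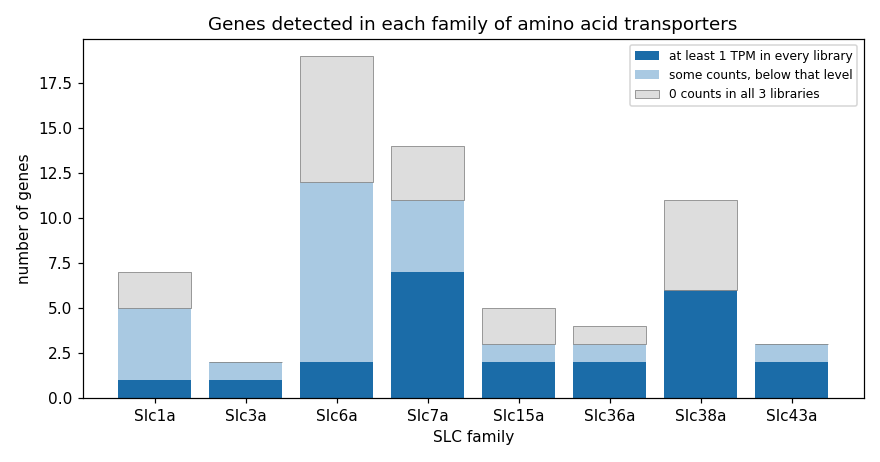
Number of genes in each family that had at least 1 TPM in every library, that had some counts but stayed below that level, or that had 0 counts in all 3 libraries. Slc7a has the most detected genes, 7 of 14, and Slc6a has 2 of 19.

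In chromatin RNA the gene level is made of several kinds of transcript. Of the 23 detected genes, 18 have a transcript annotated as retained intron (78.3%, beside 66% of detected protein-coding genes). In those 18 the median share of the TPM assigned to such transcripts was 46.7%, beside 43.5% over the 5705 detected protein-coding genes that have one. The share passed 50% in 7 of the 23 (30.4%, beside 25.8% of detected protein-coding genes). These shares lie near the background. They are shares of TPM, which is per unit of length, so short transcripts weigh more in them than in shares of counts. The tables list annotated transcripts only, so an intron is represented only where an annotated transcript contains it.

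The sequences below show what such a transcript keeps. Each is 40 bases of the retained-intron transcript with the highest level in its gene, read across an exon-intron boundary (donor) or an intron-exon boundary (acceptor) of the coding transcript, 5′ to 3′ on the gene's strand. They come from GENCODE M21 transcripts on mm10, and capitals mark the GT or AG at the intron's edge, letters that splicing would remove. The genes shown are the peptide transporter gene Slc15a3, the glutamine transporter genes Slc38a1, Slc38a2 and Slc1a5, the light chain gene Slc7a8 and Slc38a6. Some of these transcripts keep whole introns, and those with a single boundary shown (Slc38a1-206, Slc7a8-202 and Slc38a6-205) keep no whole intron between coding exons.
Slc15a3-203 donor, chr19:10856027-10856066, plus strand: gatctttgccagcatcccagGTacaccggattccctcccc
Slc15a3-203 acceptor, chr19:10857163-10857202, plus strand: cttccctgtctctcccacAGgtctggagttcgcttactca
Slc38a2-202 donor, chr15:96698162-96698201, minus strand: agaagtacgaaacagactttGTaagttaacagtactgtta
Slc38a2-202 acceptor, chr15:96698018-96698057, minus strand: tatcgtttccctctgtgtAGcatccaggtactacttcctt
Slc38a1-206 donor, chr15:96584324-96584363, minus strand: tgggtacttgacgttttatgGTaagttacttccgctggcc
Slc7a8-202 donor, chr14:54737520-54737559, minus strand: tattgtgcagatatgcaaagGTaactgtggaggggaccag
Slc38a6-205 acceptor, chr12:73318957-73318996, plus strand: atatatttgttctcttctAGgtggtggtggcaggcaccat
Slc1a5-202 donor, chr7:16795933-16795972, plus strand: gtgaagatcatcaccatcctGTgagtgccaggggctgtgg
Slc1a5-202 acceptor, chr7:16796004-16796043, plus strand: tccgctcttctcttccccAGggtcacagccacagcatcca
The intron between the donor and acceptor shown is 1136 bases long in Slc15a3, 144 in Slc38a2 and 71 in Slc1a5. Slc15a3-203 keeps 2 whole introns and Slc38a2-202 keeps 5. Of the 18 leading retained-intron transcripts, 15 keep a splice boundary of a coding exon and 5 keep a whole intron between coding exons.

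Slc15a3 (ENSMUSG00000024737.2, mm10 chr19:10839727-10859362) and Slc15a4 (ENSMUSG00000029416.17) encode proton-coupled transporters of histidine and peptides in the endosome and lysosome membrane, where they pass bacterial peptides to innate sensors. Slc15a3 stood at 313, 176 and 240 TPM in replicates 1, 2 and 3, a mean of 243 ± 68.5 (SD, n = 3), which put it after Slc6a6 among the transporters. Its read-based level was 253 ± 90.7 TPM, and there it came after Slc38a6 as well. Slc15a4 stood at 45.0, 29.0 and 35.5 TPM, a mean of 36.5 ± 8.07. Replicate 1 was highest for both. Replicate 2 was lowest for Slc15a3. For Slc15a4 the lowest library depended on the measure: replicate 2 was lowest in TPM, but replicate 3 was lowest by coding transcripts (9.00, 6.41 and 2.43 TPM) and in the read-based tables (86.5, 57.2 and 33.4 TPM). A processed transcript of 166 bases, Slc15a4-211, stood at 0, 0 and 15.4 TPM and is part of the gene level. Slc15a3 exceeded Slc15a4 in all 3 libraries, by 2.72 ± 0.10 on the log2 scale or 6.57-fold. Of the Slc15a3 level, 48.1% ± 4.97 lay in retained-intron transcripts, all of it in the Slc15a3-203 transcript shown above, at 115 ± 22.3 TPM. The coding transcript Slc15a3-201 stood at 125 ± 46.0 TPM. For Slc15a4 coding transcripts held 16.3% ± 8.26 and retained-intron transcripts 41.2% ± 13.5, so the ratio between the pair over protein-coding transcripts only was 4.49 ± 1.05 on the log2 scale. Slc15a3 shares 1541 bases with Tmem132a on the opposite strand, which was listed at 151 ± 30.0 TPM. No source used here says whether reads were counted by strand, so reads in such overlaps cannot be told apart. The plasma membrane peptide transporter genes were low: Slc15a2 stood at 1.89, 1.29 and 0.13 TPM and Slc15a1 had 0 counts.

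Other detected Slc36a and Slc38a genes, some of them for lysosomal proteins, ranged from 3.54 TPM in Slc36a4 to 35.8 TPM in Slc38a9. Slc36a4 lay above 20.5% of detected protein-coding genes and Slc38a9 above 80.5%. Slc38a9, which encodes the lysosomal arginine sensor of mTORC1, stood at 36.5, 39.0 and 32.0 TPM (35.8 ± 3.57). Slc38a7, for the lysosomal exporter of glutamine and asparagine, stood at 17.5, 12.7 and 12.1 TPM (14.1 ± 2.92). The proton-coupled transporter gene Slc36a1 stood at 7.35, 14.8 and 12.1 TPM (11.4 ± 3.76). Its libraries varied more than those of Slc38a9, with replicate 1 the lowest. Slc36a4, another proton-coupled amino acid transporter gene, stood at 2.66, 4.89 and 3.06 TPM (3.54 ± 1.19), below Slc36a1 in every library by 1.65 ± 0.27 on the log2 scale or 3.14-fold. Slc38a10, a less studied member of the Slc38a family, stood at 11.5, 20.0 and 14.4 TPM (15.3 ± 4.34). Coding transcripts held 22.7% of the Slc38a9 level, 38.5% of Slc38a7 and 55.3% of Slc38a10, beside 88.9% of Slc36a1 and 100% of Slc36a4. By counts rather than TPM, they held 65.3% of Slc38a9, 82.1% of Slc38a7 and 87.6% of Slc38a10, beside 99.3% of Slc36a1 and 100% of Slc36a4.

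A list of 27 genes of amino acid sensing and mTORC1 control was set beside these transporters. Of these 21 were detected, beside 39.2% of protein-coding genes. The median over the list was 9.79 TPM, beside 0.367 over protein-coding genes. The list was chosen by function, and nothing about the pathway is read from its count. The highest were Fnip2 at 229 ± 82.4 TPM and Flcn at 56.9 ± 11.8 TPM, whose products act together on the Rag GTPases, and Lamtor3, a subunit of the lysosomal Ragulator scaffold, at 66.9 ± 7.83 TPM. The lowest was the arginine sensor gene Castor1 at 0.0967 ± 0.106 TPM. Of 9 amino acid transporter genes in other SLC families and elsewhere, 5 were detected, beside 39.2% of protein-coding genes. Nothing is read from so small a count. The aromatic amino acid transporter gene Slc16a10 was highest at 99.4 ± 24.1 TPM, followed by the mitochondrial aspartate-glutamate carrier gene Slc25a12 at 26.1 ± 4.16 and the lysosomal cystine exporter gene Ctns at 8.52 ± 1.22. Slc32a1 and Slc17a6, which load synaptic vesicles, had 0 TPM in all libraries.

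Slc6a6 (ENSMUSG00000030096.8, mm10 chr6:91684053-91759066) encodes the sodium-coupled taurine transporter. It stood at 464, 507 and 452 TPM, a mean of 474 ± 29.4 (SD, n = 3), which ranked 54 among the 8638 detected protein-coding genes. The libraries differed less than for any other detected transporter gene, with a coefficient of variation (CV) of 6.19%. Retained-intron transcripts held 64.1% ± 6.45 of that level and coding transcripts 28.3% ± 3.65, or 133 ± 10.2 TPM. By counts rather than TPM, coding transcripts held 78.1% ± 3.15, since the retained-intron transcripts are short: the leading one has 481 bases and the coding transcript Slc6a6-201 has 6186. By mean level, Slc6a6 remained the highest of the transporter genes by coding transcripts only and in the read-based tables (655 ± 43.5 TPM). By coding transcripts, however, Slc15a3 exceeded it in replicate 1, at 171 against 129 TPM. The coding mean of Slc15a3, 125 ± 46.0 TPM, lay below that of Slc6a6 by less than its SD. Slc6a6 shares 1836 bases with Gm45828 on the same strand (67.6 ± 5.55 TPM), and 1943 bases with Gm44981 (86.0 ± 3.28 TPM) and 1676 with 4930517G19Rik (46.5 ± 9.76 TPM) on the opposite strand. All 3 are entries that the annotation marks as awaiting experimental support.

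The creatine transporter gene Slc6a8 stood at 33.2, 30.8 and 42.2 TPM (35.4 ± 6.01) and was the other detected Slc6a gene. Retained-intron transcripts held 58.2% ± 6.14 of it. The remaining 17 Slc6a genes, among them the glycine transporter gene Slc6a9 at 0.35, 0.17 and 0.28 TPM, were not detected, and 7 of them had 0 counts in all 3 libraries.

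Glutamine and other small neutral amino acids are carried by several Slc38a products and by the exchanger ASCT2, encoded by Slc1a5. Slc38a6 was the highest Slc38a gene at 154, 132 and 151 TPM (145 ± 12.1), with a CV of 8.30%. Its read-based level was higher, 336 ± 53.7 TPM. Slc38a1, for the sodium-coupled glutamine transporter SNAT1, stood at 113, 43.4 and 83.2 TPM (79.8 ± 34.7). Slc38a2, for SNAT2, the form known to be induced when amino acids run short, stood at 64.9, 31.2 and 68.1 TPM (54.7 ± 20.4). Both were lowest in replicate 2, and Slc38a2 lay below Slc38a1 in each library, by 0.79, 0.48 and 0.29 on the log2 scale (a ratio of -0.52 ± 0.26). Across libraries, however, their ranges overlapped. Over protein-coding transcripts only the ratio was -0.29 ± 0.35, and replicate 3 turned, with Slc38a2 at 38.9 and Slc38a1 at 36.6 TPM.

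Slc38a1 and Slc38a2 lie 44.5 kb apart on chromosome 15, and they were the only pair of transporter genes within 200 kb of each other with both detected. Retained-intron transcripts held 54.6% ± 1.46 of Slc38a1 and 46.8% ± 3.47 of Slc38a2, shares that varied little between libraries although the levels varied 2.59-fold and 2.18-fold. The Slc38a2-202 transcript shown above has 6116 bases, 68.3% of them outside the exons of coding transcripts. For Slc38a6 the share was 44.0% ± 3.61, and its leading retained-intron transcript stood at 52.0, 51.7 and 51.7 TPM.

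Slc1a5 (ENSMUSG00000001918.17, mm10 chr7:16781340-16798274) was the highest Slc1a gene at 4.12, 4.15 and 5.85 TPM (4.71 ± 0.99). It lay below Slc38a2 in every library, with a log2 ratio of -3.45 ± 0.54 or 10.9-fold. Retained-intron transcripts held 94.7% ± 6.52 of its TPM, the largest share among the 23 genes, and coding transcripts stood at 0.173 ± 0.300 TPM, which took the log2 ratio to Slc38a2 to -7.23 ± 2.21 over protein-coding transcripts only. The leading one, Slc1a5-202, held 75.0% ± 10.1 of the level. It has 2807 bases, and all but 71 of them lie in exons of coding transcripts. Those 71 are the short intron whose ends are printed above. The read-based tables gave a like share in retained-intron transcripts, 90.0% ± 6.57.

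**Figure D3:**
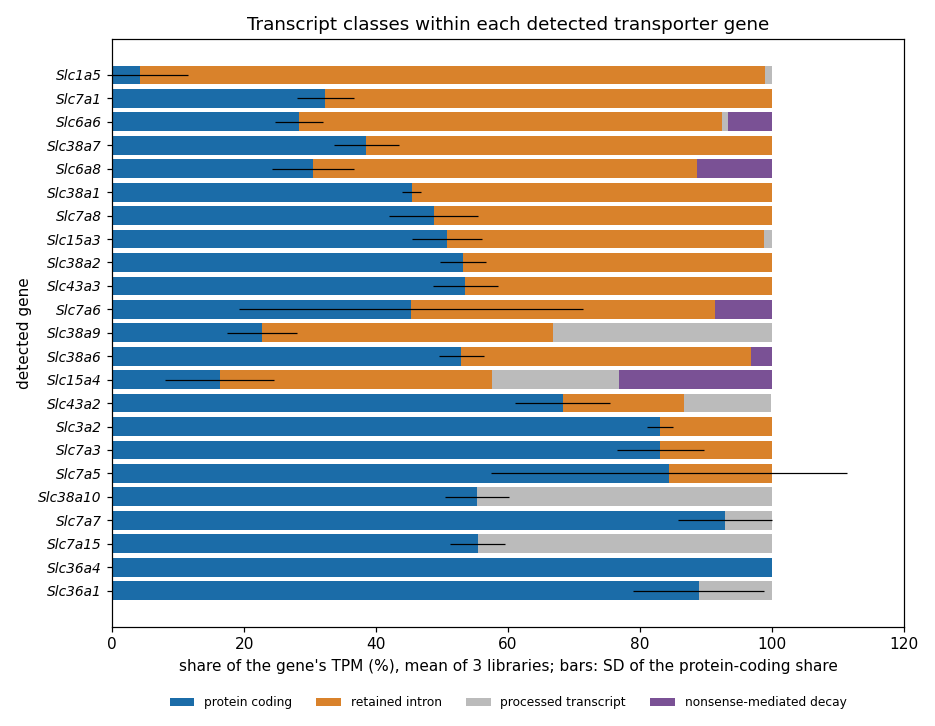
Share of each detected gene's TPM in transcripts of each annotated class, as the mean of 3 libraries, with bars for the SD of the protein-coding share. Genes are ordered by the retained-intron share, from 94.7% in Slc1a5 to 0 in the 5 genes that have no annotated transcript of that class.

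The large neutral amino acid systems pair the heavy chain 4F2hc, encoded by Slc3a2, with an Slc7a light chain. Slc3a2 (ENSMUSG00000010095.13, mm10 chr19:8706882-8723369) stood at 119, 69.4 and 92.1 TPM (93.6 ± 24.9). Among the light chain genes Slc7a8, for LAT2, was highest in the alignment-based tables at 61.5, 46.5 and 42.3 TPM (50.1 ± 10.1). By the read-based values it stood at 50.2 ± 12.6 TPM, below the light chain gene Slc7a7 at 70.8 ± 18.4. There Slc7a8 was the higher in replicate 1, and Slc7a7 in replicates 2 and 3. Slc7a5, for LAT1, the leucine importer of many dividing cells, stood at 1.74, 1.11 and 2.32 TPM (1.72 ± 0.61). Thus the LAT1 gene stood 28.3-fold below the LAT2 gene, a log2 ratio of -4.82 ± 0.61, and 52.2-fold below the heavy chain gene, at 5.71 ± 0.40 on the log2 scale, each in 3 of 3 libraries. The 28.3-fold gap was smaller in the read-based tables, where Slc7a5 stood at 9.00 ± 3.05 TPM and the log2 ratio was -2.50 ± 0.49. It was also smaller by posterior mean TPM, another estimate in the alignment-based tables, with Slc7a5 at 6.64 TPM and a log2 ratio of -2.80 ± 0.62. The intervals of Slc7a5 there were wide, at 1.49 to 11.4, 0.73 to 17.9 and 2.04 to 19.7 TPM. The log2 ratio of Slc3a2 to Slc7a5 was 4.63 ± 0.42 in the read-based tables and 3.76 ± 0.62 by posterior mean TPM. The whole of Slc7a5 lies inside the overlap of 26545 bases with Gm20388, a gene on the opposite strand at 3.32 ± 1.96 TPM.

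Transcript classes differed within this system. Slc3a2 had 83.1% ± 1.97 of its level in coding transcripts, more than Slc7a8 with 48.7% ± 6.76, where the Slc7a8-202 transcript shown above held the rest. By coding transcripts Slc3a2 stood at 77.8 ± 20.4 TPM, below Slc6a6 and Slc15a3 and level with Slc38a6 at 77.0 ± 10.2 TPM. Slc38a6 exceeded Slc3a2 in replicates 2 and 3, and Slc43a2 did so in replicate 2.

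The y+L system exchanges cationic for neutral amino acids through other light chains. Slc7a7, for y+LAT1, whose loss in humans impairs macrophage function, stood at 13.1, 21.4 and 10.7 TPM (15.1 ± 5.65). Slc7a6, for y+LAT2, stood at 1.31, 2.11 and 1.65 TPM (1.69 ± 0.40). Slc7a7 exceeded Slc7a6 in every library by 3.04 ± 0.37 on the log2 scale or 8.25-fold. Coding transcripts held 92.9% ± 7.17 of Slc7a7, a gene with no annotated retained-intron transcript. The read-based tables put it at 58.9, 92.0 and 61.6 TPM (70.8 ± 18.4), 4.70 times the alignment-based level, and the log2 ratio to Slc7a6 at 4.69 ± 0.18.

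Cationic amino acid transporters import arginine without a heavy chain. Slc7a1, for the broadly expressed CAT1, stood at 20.4, 13.4 and 20.0 TPM (18.0 ± 3.94). Slc7a2, for CAT2, known in activated macrophages for arginine supply to nitric oxide synthase, stood at 2.78, 0.85 and 1.81 TPM (1.81 ± 0.97) and missed the detection level in replicate 2. Slc7a1 exceeded Slc7a2 in every library by 3.35 ± 0.50 on the log2 scale or 10.2-fold. Retained-intron transcripts held 67.7% ± 4.30 of Slc7a1, and over protein-coding transcripts only the log2 ratio was 1.73 ± 0.33. Slc7a3, for CAT3, was near the threshold at 1.39 ± 0.33 TPM, and the family member Slc7a15 stood at 6.36 ± 2.19 TPM.

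Slc43a2 encodes LAT4, a sodium-independent facilitator of branched-chain and aromatic amino acids. It stood at 68.1, 146 and 76.7 TPM (97.0 ± 42.8), and replicate 2 lay well above the others. Slc43a1, for the related LAT3, had 0, 1 and 1 expected counts. Pooled over libraries the counts were 19418 against 2, a ratio of 5404 per unit of effective length (95% exact interval 1496 to 44624, counting error only). The read-based tables put Slc43a1 at 1.03 ± 0.38 TPM, so that the log2 ratio was 7.06 ± 0.76 there and 9.62 ± 0.55 in the alignment-based tables. The third gene, Slc43a3, whose product is known for purine nucleobases rather than amino acids, stood at 29.3, 10.1 and 19.6 TPM (19.7 ± 9.58), although it lies 73.0 kb from Slc43a1. The genes Slc43a2, Slc3a2 and Slc38a1 held neighbouring places in the order of levels and differed by less than their SDs.

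All 10 pairs, chosen by function, kept 1 sign in all 3 libraries of the alignment-based tables, and the last pair were the glutamate transporter genes Slc1a3 and Slc1a2. The exact sign-flip permutation test over 3 libraries, two-sided, cannot go below 0.25, and p was 0.25 for each pair, before and after Benjamini-Hochberg adjustment over the 10 pairs. No pair can therefore pass a threshold in this design. Ratios use log2(TPM + 0.1), and folds are taken from the mean of these. For Slc1a3 and Slc1a2 the ratio was -0.84 ± 0.39, with Slc1a3 at 0, 0.16 and 0.09 TPM from 0, 3 and 3 counts and Slc1a2 at 0.10, 0.47 and 0.15 TPM. It turned to 2.03 ± 1.51 in the read-based tables, so no direction is read from it. The level of Slc1a2 is itself uncertain. Its posterior mean TPM, another estimate in the alignment-based tables, was 9.53. The lower bounds of its intervals there were 1.97, 2.87 and 2.54 TPM, above the TPM of each library.

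The 42 genes not detected were of 2 kinds. In 22, some counts were present and mean levels ran from 0.0033 TPM in Slc6a2 to 1.81 TPM in Slc7a2. In 20 genes (30.8%, beside 31.8% of protein-coding genes) all 3 libraries had 0 expected counts. They include the epithelial cystine and peptide transporter genes Slc7a9 and Slc15a1, the dopamine transporter gene Slc6a3, the astrocyte GABA transporter gene Slc6a11 and the liver neutral amino acid transporter genes Slc38a3 and Slc38a4. By counting error alone, a count of 0 allows up to 3 counts, which correspond to 0.0372 to 0.253 TPM for these genes and libraries. Levels below that were not detectable at this depth. Read assignment is not covered, and the read-based mean of these genes reached 2.71 TPM. Within the cluster on chromosome 11, Slc36a1 was detected while Slc36a3 stood at 0.143 ± 0.0153 TPM and Slc36a2, 19.3 kb from Slc36a1, had 0 counts.

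The level of some genes depended on how reads were assigned. By the read-based values, 29 of the 65 genes (44.6%) were detected, beside 49.7% of protein-coding genes, and these included all 23. The 6 added genes were Slc1a3, Slc6a9, Slc7a2, Slc7a13, Slc15a2 and Slc38a8. In 9 genes the mean levels differed by more than 4-fold with the higher at least 1 TPM, and in all 9 the read-based level was the higher. Besides Slc7a7, Slc7a5 and Slc43a1 these were Slc1a3 (2.08, 5.03 and 5.50 TPM, against 0, 0.16 and 0.09), Slc6a9 (2.08, 1.44 and 1.57 TPM), Slc7a13 (1.36, 4.04 and 3.44 TPM, against 0, 0.06 and 0) and 3 genes with 0 expected counts. These were Slc15a5 (0.85, 3.57 and 3.71 TPM), Slc38a8 (2.50, 1.54 and 1.19 TPM) and Slc38a11 (0.82, 2.08 and 2.46 TPM). Slc1a3 encodes the glutamate transporter GLAST, and Slc7a13 a transporter of the kidney. Of the 9, only Slc7a7 and Slc7a5 had an alignment-based mean of at least 1 TPM. Estimates within the alignment-based tables differed too. By posterior mean TPM, Slc1a2 stood at 9.53 against 0.24, Slc7a5 at 6.64 against 1.72 and Slc6a9 at 2.68 against 0.267. Of the 30 genes with values per library, 18 were higher by posterior mean TPM and 12 lower.

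**Figure D4:**
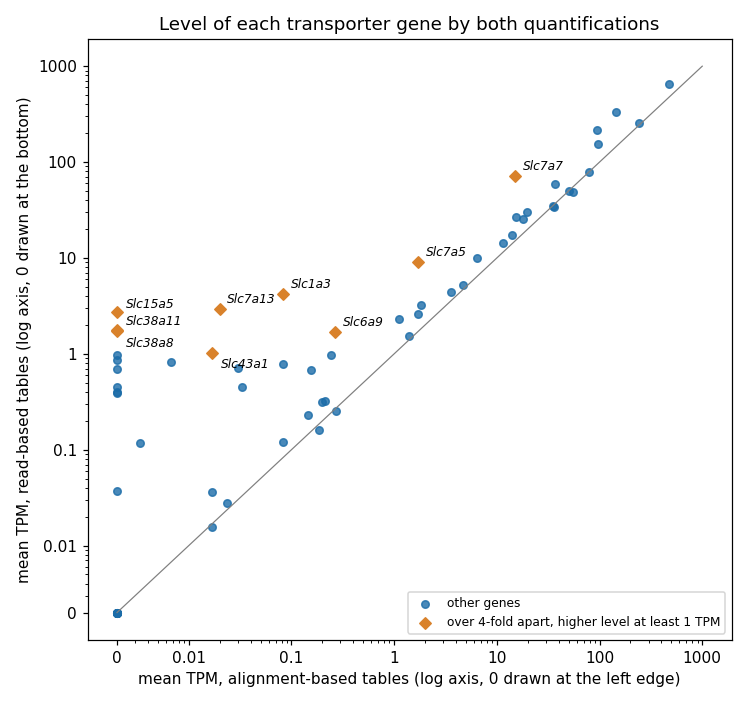
Mean TPM of each of the 65 genes in the alignment-based tables (x) and the read-based tables (y), on log axes with 0 drawn at the edge. The diagonal marks equal levels, and the 9 labelled genes, which lie above it, differ by more than 4-fold with the higher level at least 1 TPM.

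The order of the libraries differed between genes. Over the 23 detected genes the median CV was 26.7%, beside 22.8% over the 8494 detected protein-coding genes in the same range of levels. It was lowest for Slc6a6 (6.19%), Slc38a6 (8.30%) and Slc38a9 (9.95%) and highest for Slc38a1 (43.5%), Slc43a2 (44.1%) and Slc43a3 (48.7%). Replicate 2 held 10 of the lowest values and 9 of the highest. Over detected protein-coding genes it held 20.3% of the lowest and 55.7% of the highest values, so that it was high in most of them. Replicate 1 held 7 of the lowest values and 10 of the highest among the 23, beside 50.5% and 22.4% over detected protein-coding genes. The genes lowest in replicate 2 included Slc3a2, Slc15a3, Slc38a1, Slc38a2 and Slc43a3, and those highest there included Slc7a7, Slc36a1, Slc36a4, Slc38a10 and Slc43a2. The macrophage markers had their highest sum in replicate 2, much of it from Adgre1 at 386, 539 and 329 TPM. Csf1r, Itgam, Lyz2 and Spi1 were highest there too. Cd68, Mertk and Fcgr1 were highest in replicate 1, and Cd68 was lowest in replicate 2. Replicate 2 was also made from the least RNA. The part of RNA amount or of macrophage content in these differences was not tested. No library pair agreed within counting noise, with a chi-square per degree of freedom of 41.6 to 103. Across the 25 transporter genes with a mean of at least 1 TPM, Pearson's r of log2 levels between libraries was 0.952 to 0.980, a description across genes of the same libraries.

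**Figure D5:**
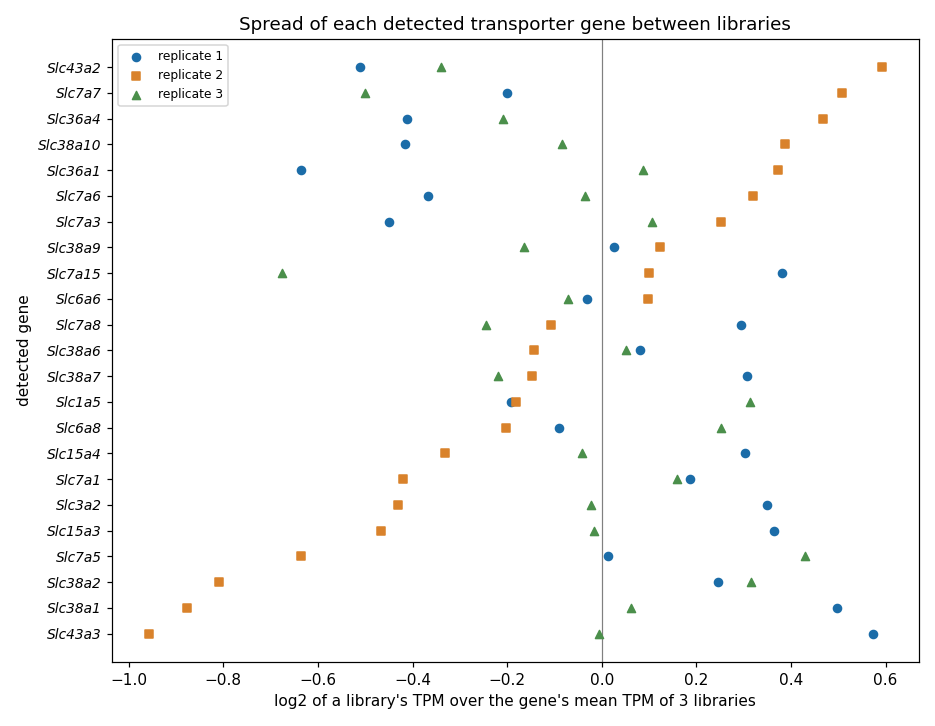
Deviation of each library from the gene's own mean over 3 libraries, as a log2 ratio, for the 23 detected genes, ordered by replicate 2. Slc43a3 has replicate 2 at -0.96 and replicate 1 at 0.57, Slc43a2 has them at 0.59 and -0.51, and the points of Slc6a6 lie between -0.07 and 0.10.

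Promoter sequence was searched for 4 motifs in RefSeq windows (GRCm38.p6), which matched 46 of the 65 genes, 15 of them detected. Each window runs from 250 bases before to 50 after a start, and both strands were read. The core of the amino acid response element, TGATGNAA, was present in windows of 4 genes, of which only Slc7a7 was detected. That is 7.46% of their 67 windows, beside 3.97% of all windows. The E-box CACGTG was present in windows of 9 genes, of which Slc36a1 and Slc38a7 were detected, or 13.4% of their windows beside 7.15% of all. The interferon-stimulated response element form, 2 GAAA runs with 2 free bases between them, was found in none of the 46, beside 3.44% of all windows. A loose NF-kB form, GGG and CC with 5 free bases between them, was present in 55.2% of the transporter windows, beside 50.8% of all windows. Each motif was counted separately, also where matches of different motifs overlapped. A match is a description of the window and not a binding site.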

How the data were processed

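Chromatin RNA of 1 group of macrophages was measured in 3 libraries. Reads were placed on mm10 with GENCODE M21, per the file headers and the deposited text. The programs and their settings: not given in the sources used here. Deposited expected counts (alignment-based tables) and estimated counts (read-based tables) are reads assigned to each gene or transcript and need not be whole. The TPM values were computed by the authors per unit of effective length. Depth was 13897176, 19597343 and 19348626 expected counts. The read-based tables hold 20743071, 34961536 and 32857771 estimated counts. Intervals and floors cover counting error only.

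Members were chosen by symbol and biotype, and joined by gene identifier. They and the gene lists were chosen with earlier results of these data known. With 1 group, no change could be tested. Genes with 1 TPM or more in all 3 libraries counted as detected. Ratios of 10 pairs used log2(TPM + 0.1) and an exact sign-flip test. Values per library were given for 30 genes: those with a mean of at least 10 TPM, the highest of each family, members of pairs, the 3 lowest and 3 highest CVs, and those differing by over 4-fold between quantifications. In counts simulated for 20061 genes, 99.1% of those above 2 TPM and 0.0281% of those below 0.5 TPM were called detected. These counts were drawn around the observed levels with a fixed CV. Read assignment, which moved the calls between quantifications, was not simulated, so the calls are not tested against it. Alternatives were the read-based tables, posterior mean TPM, protein-coding transcripts only, counts scaled to CPM, TPM rescaled over protein-coding genes, other thresholds, a pseudocount of 1, and leaving out each library. Python 3.11.15, pandas 2.3.3 and numpy 2.4.6 were used.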

Additional observations from a re-analysis of the deposited data

Results flagged for a closer look

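In 8 genes the alignment-based tables gave 0 expected counts in all 3 libraries, while the read-based tables, which the levels above do not use, gave more than 3 estimated counts in every library. The mean read-based level was 2.71 TPM for Slc15a5, 1.79 TPM for Slc38a11 and 1.74 TPM for Slc38a8. It was 0.965 TPM for Slc15a1, the intestinal peptide transporter gene, 0.854 TPM for Slc6a5, the neuronal glycine transporter gene, and 0.698 TPM for Slc36a2. For Slc38a5 it was 0.450 TPM and for Slc6a18 0.398 TPM. Of these genes, only Slc38a8 reached 1 TPM in every library. None of the neuron, astrocyte, gut or kidney markers was detected. Groups of 3 libraries were not tested for outlying samples.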

How the results depend on the processing

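The number of detected genes, 23 in the main setting, stayed within 1.5 times under all alternatives run, from 19 with protein-coding transcripts only to 31 with posterior mean TPM. Counts within some families moved further. Slc6a went from 2 to 5 with posterior mean TPM, and Slc7a from 7 to 4 with protein-coding transcripts only. Slc1a went from 1 to 0 with protein-coding transcripts only, and to 2 with posterior mean TPM or the read-based tables. The median over all 65 genes moved with the scale: from 0.143 TPM to 0.970 in the read-based tables, 0.977 with posterior mean TPM, 0.0333 with protein-coding transcripts only, 0.505 with TPM rescaled over protein-coding genes, and 18.0 over genes with a mean of at least 1 TPM. Leaving out each library in turn gave 0.085 (without replicate 3) to 0.125. Of the 10 pair ratios, 9 kept the sign of their mean under all alternatives run, and Slc1a3 to Slc1a2 turned from -0.84 to 2.03 on the log2 scale in the read-based tables; the cause was not tested. The median CV lay between 26.7% and 28.8%. Of the 30 named levels, 26 were higher in the read-based tables, and the coding transcripts alone gave lower levels for 23. No paired analysis was possible because all libraries belong to 1 group. Rescaling over protein-coding genes raised every level above 0 by 1.81 ± 0.05 on the log2 scale and detected 24 genes. For genes with 0 counts, levels up to 0.0372 to 0.253 TPM could have gone uncounted through counting error alone. These are not upper limits where read assignment differs, and the read-based mean of such genes reached 2.71 TPM.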
